A study of Mus musculus with 12 samples.

Results

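The miR-297, miR-466, miR-467 and miR-669 families of mouse microRNAs (miRNAs) were followed through untreated skin and skin tumours of wild-type (WT) mice and mice without TAp63. Members were taken by name alone: every entry of the table called miR-297, miR-466, miR-467 or miR-669, with any letter, copy number or arm. These were 80 of the 1251 entries: 6 of miR-297, 31 of miR-466, 13 of miR-467 and 30 of miR-669. Most of them were not measurable. In all 12 libraries, 59 of the 80 members (73.8%) stood at the lowest value of the table, a log2 value of 3.32, which is the log2 of 10 and is called the floor here. Above it in any library were 21 members (26.2%), against 49.8% of the 1171 other entries.

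Most members of these families come from a large block of repeated hairpins that rodents carry in an intron of Sfmbt2, a gene related to the Polycomb group of chromatin regulators. Sfmbt2 is imprinted, with expression from the paternal copy in early embryos and placenta, and its intronic miRNAs are known chiefly from embryonic stem cells and placenta. Each hairpin can give a miRNA from its 5′ arm (5p) and its 3′ arm (3p). A miRNA finds its target messenger RNAs mainly through its seed, the bases 2 to 8 from the 5′ end.

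All mice were of the C57Bl6 strain. Untreated dorsal skin came from WT mice (n = 3) and TAp63-/- mice (n = 3) aged 4 weeks. Squamous cell carcinoma of the skin (SCC) was taken from WT mice (n = 2) and TAp63-/- mice (n = 4) older than 35 weeks after chronic ultraviolet radiation of 2.5 kJ per square metre, given 3 times a week. TAp63 is the form of the p53-related transcription factor p63 that has the amino-terminal transactivation domain. All tumours were irradiated and older and no skin was, so tumour, age and radiation cannot be told apart in any difference between SCC and skin. Whether every sample is its own mouse is not said in the labels. P-values therefore reflect the spread between libraries of a group, which may in part be technical. Replicate numbers follow accession order and pair nothing. A table of miRNAs holds no TAp63 transcript, so the knockout was not checked here.

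The reference table of mature miRNAs (RefSeq, GRCm38.p6) matched 8 of the 80 members, which are shown because they make the repeat character of the families visible. The seed is in capitals, the rest in lower case, 5′ to 3′.
miR-466i-3p: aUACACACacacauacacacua
miR-466q: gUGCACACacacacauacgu
miR-467f: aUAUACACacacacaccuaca
miR-467g: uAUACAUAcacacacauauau
miR-466j: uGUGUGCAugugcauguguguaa
miR-466k: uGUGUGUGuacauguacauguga
miR-467h: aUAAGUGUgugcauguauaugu
miR-669n: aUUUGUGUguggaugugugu
The first 4 hold the letters ACACAC and the other 4 hold UGUGUG, with only the mature strand searched. Among the 1001 table entries with a mature sequence, 1.1% held ACACAC and 2.0% held UGUGUG. No seed was shared between any of these 8 members, and miR-467h had the seed of 1 entry outside the families, miR-668-5p.

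Each of these 8 mature miRNAs lies outside Sfmbt2. On the plus strand of GRCm38.p6 are miR-466i-3p (chr13:17747552-17747573), miR-466q (chr3:28419988-28420007), miR-466j (chr10:60960802-60960824), miR-466k (chr3:85467396-85467418), miR-467h (chr9:115381898-115381919) and miR-669n (chr3:115979905-115979924). On the minus strand are miR-467f (chr11:69635419-69635439) and miR-467g (chr5:34732872-34732892). All 8 were at the floor in all 12 libraries. The mature sequences of the members above the floor were not used here.

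Nearly all members that were measured have hairpins in the Sfmbt2 intron. The annotation matched 81 hairpins to the member names, and 71 of them lay inside Sfmbt2 (chromosome 2, 10370510 to 10595253 in mm10). They filled a stretch of 51617 bases, from 10466663 to 10518279. All 71 were in 1 intron (10461473 to 10523944), the intron 11 of 22 in the principal transcript, and none overlapped an annotated exon of Sfmbt2. The other 10 hairpins were on chromosomes 3, 5, 7, 9, 10, 11 and 13. Of 64 members with hairpins in Sfmbt2 only, 19 were above the floor in at least 1 library. Of 5 members with hairpins both in Sfmbt2 and elsewhere, 1 was above it (miR-297a-5p), and of 9 members with hairpins elsewhere only, 0 were. The remaining 2 members, miR-466a-3p and miR-466a-5p, had no hairpin entry, and miR-466a-3p was above the floor.

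**Figure D1:**
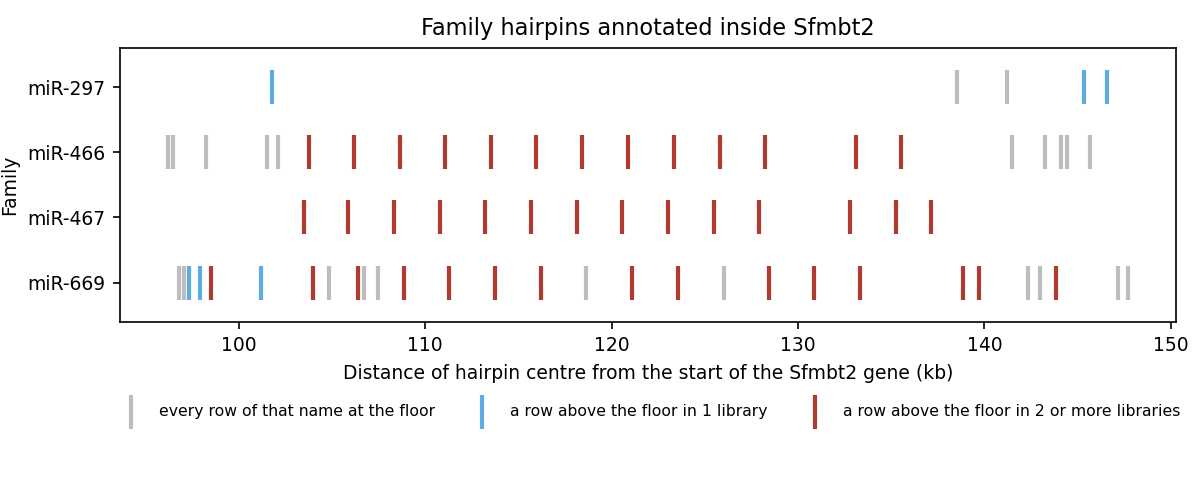
Hairpins of the 4 families inside Sfmbt2, placed by the distance of their centre from the start of the gene (x axis, kb) and by family (y axis), with grey for hairpins whose members were all at the floor, blue for a member above it in 1 library and red for a member above it in 2 or more. All 14 plotted miR-467 hairpins are red, while grey marks fall mainly at both ends of the block. Copies of 1 name share 1 colour because they share 1 value. The hairpins of miR-669a-3-3p and miR-669d-2-3p, both at the floor, take the colours of miR-669a-3p and miR-669d-5p.

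Names in these families overlap, so the 21 members above the floor were fewer than 21 independent measurements. miR-467a has 10 annotated hairpins, miR-669a has 12 and miR-466b has 8. The table gives each arm of these names 1 value, so that value cannot be assigned to 1 copy. Only miR-669a-3-3p and miR-669d-2-3p are named for 1 copy, and both were at the floor in all 12 libraries. Across members, 13 of the 21 (61.9%) had the same value as another member in all 12 libraries, to 6 decimals, against 35 of 583 other entries above the floor (6.0%). The identical sets were miR-467a-5p with miR-467b-5p, miR-467a-3p with miR-467d-3p, miR-669a-3p with miR-669o-3p, miR-297a-5p with miR-669o-5p, miR-466a-3p with miR-466e-3p, and miR-466b-3p with miR-466c-3p and miR-466p-3p. The 21 members thus made 14 distinct profiles. Where the values of such a set are described, they are 1 measurement. The counts and medians over members below still count each name.

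Above the floor were 7 of 13 members of miR-467 (53.8%), 7 of 30 of miR-669 (23.3%), 6 of 31 of miR-466 (19.4%) and 1 of 6 of miR-297 (16.7%). The counts differed between the 2 arms of the hairpins. In miR-467 all 5 of the 5p members and 2 of 5 of the 3p members were above it, while in miR-466 it was 1 of 13 of the 5p members and 5 of 13 of the 3p members. In miR-669, 5 of 12 of the 5p and 2 of 14 of the 3p members were above it. None of the 12 members named without an arm was. Among all 1251 entries, 256 of 465 named 5p, 259 of 500 named 3p and 89 of 286 without an arm were above it. The 5 miR-466 3p members are the identical sets named above, so they are fewer than 5 measurements. They lay at 3.38 to 3.68 in 2 libraries, just above the floor of 3.32.

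**Figure D2:**
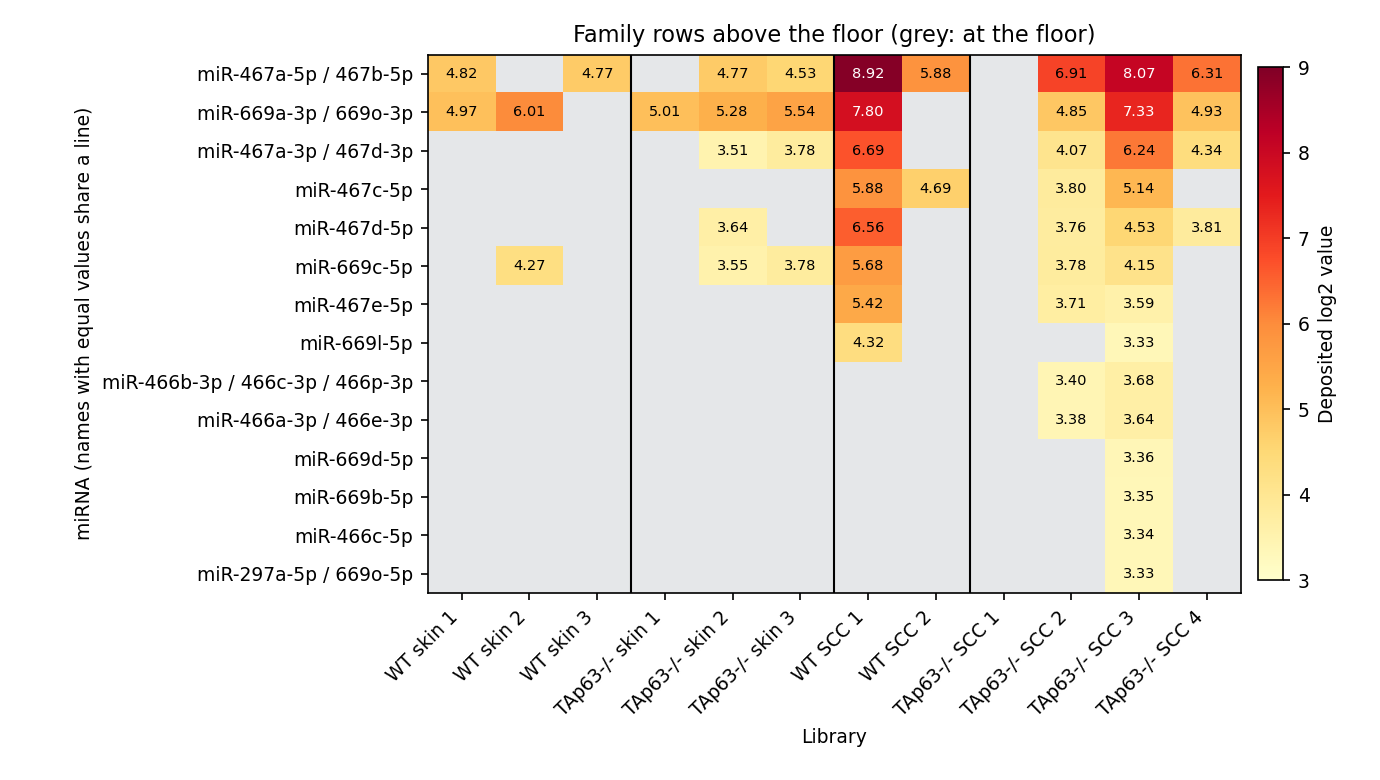
Deposited log2 values of the 21 members above the floor (y axis, names with equal values on 1 line) in the 12 libraries (x axis), with grey at the floor. The highest values are in WT SCC 1 and TAp63-/- SCC 3, and the column of TAp63-/- SCC 1 is grey throughout.

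The number of members above the floor was 2 to 8 in skin and 0 to 21 in SCC. It was 4, 3 and 2 in the WT skin libraries and 2, 8 and 7 in the TAp63-/- skin libraries. In WT SCC it was 11 and 3, and in TAp63-/- SCC it was 0, 15, 21 and 7. Tumours thus included both the libraries with the most members and the 1 library with none, TAp63-/- SCC 1.

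The number of all entries above the floor moved partly with these counts. It was 390, 433 and 403 in WT skin, 370, 465 and 439 in TAp63-/- skin, 402 and 420 in WT SCC, and 432, 489, 545 and 476 in TAp63-/- SCC. TAp63-/- SCC 3 was highest in both counts, but WT SCC 1 had 11 members with 402 entries and TAp63-/- SCC 1 had 0 members with 432 entries. The lowest value above the floor, which is the nearest measure of sensitivity, ran from 3.32 in TAp63-/- SCC 3 to 4.79 in TAp63-/- skin 1. These libraries had the most and the fewest entries above the floor, 545 and 370. In values that appear quantile normalized, this limit largely restates the number of entries, so it is not a separate measure. With every library raised to that highest limit of 4.79, a setting chosen after seeing the data, 39 of the 83 member values above the floor remained, in 10 members. The counts were then 4, 2 and 0 in WT skin, 2, 2 and 2 in TAp63-/- skin, 10 and 2 in WT SCC, and 0, 4, 7 and 4 in TAp63-/- SCC. The part of sensitivity in the counts of members was not tested further.

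**Figure D3:**
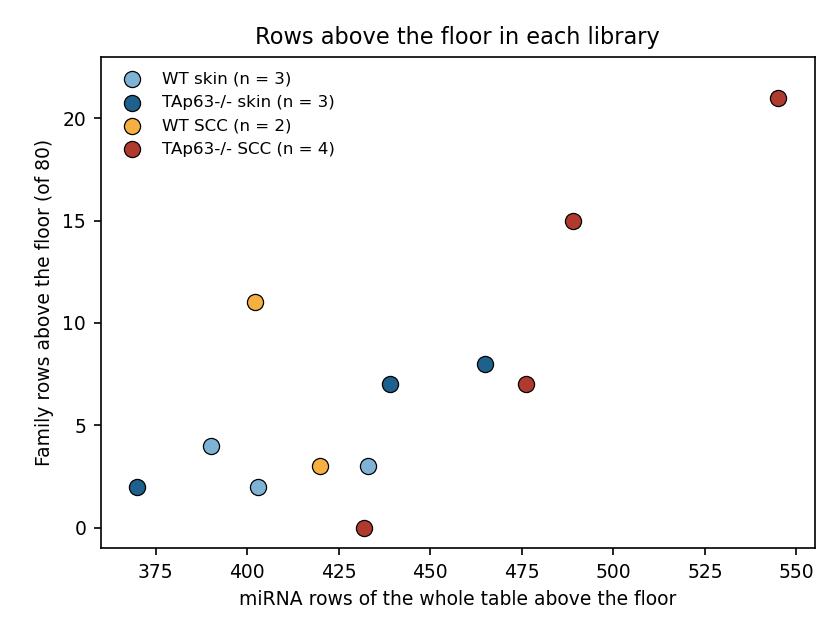
Members above the floor (y axis, of 80) against all entries above the floor (x axis) in each of the 12 libraries, with 1 point per library coloured by group. TAp63-/- SCC 3 stands at the upper right with 21 members and 545 entries, and WT SCC 1 has 11 members at 402 entries.

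The miR-467 family gave the largest values and the only members that passed the test between SCC and skin. The most abundant entry was the pair miR-467a-5p and miR-467b-5p. Their common log2 value was 4.82, 3.32 and 4.77 in WT skin and 3.32, 4.77 and 4.53 in TAp63-/- skin. It was 8.92 and 5.88 in WT SCC, and 3.32, 6.91, 8.07 and 6.31 in TAp63-/- SCC. In 5 of 6 tumours the value was above every skin library, and in TAp63-/- SCC 1 it was at the floor. In WT SCC 1 the pair ranked 172 of the 402 entries above the floor, so even its highest level was moderate for this table.

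The pair rose in SCC. Averaged over the genotypes, it was higher in SCC by 2.52 ± 0.81 on the log2 scale (SE), or 5.73-fold (limma, Benjamini-Hochberg adjusted p = 0.0287). Skin and tumour libraries were both at the floor in places, so the fold may be off in either direction. The call rested on single libraries: the adjusted p was 0.157 without WT SCC 1, 0.0664 without WT skin 2 and 0.0672 without TAp63-/- skin 1. In bulk tissue, more cells of a type and more RNA per cell cannot be told apart.

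In each genotype alone, the pair did not pass. The difference was 3.09 ± 1.25 in WT mice (adjusted p = 0.113), with group means of 4.31 ± 0.85 (SD, n = 3) in skin and 7.40 ± 2.15 (SD, n = 2) in SCC. In TAp63-/- mice it was 1.94 ± 1.04 (adjusted p = 0.173), with means of 4.21 ± 0.78 (SD, n = 3) and 6.15 ± 2.02 (SD, n = 4). Without TAp63-/- SCC 1, the library with no member above the floor, the difference in TAp63-/- mice was 2.89 (adjusted p = 0.0222) and that in WT mice passed as well (adjusted p = 0.0374), since all groups share 1 estimate of the spread.

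miR-467c-5p was measured in tumours and in no skin library. It was at the floor of 3.32 in all 6 skin libraries. In WT SCC it was 5.88 and 4.69, and in TAp63-/- SCC it was 3.32, 3.80, 5.14 and 3.32. Both WT tumours and 2 of the 4 TAp63-/- tumours were thus above every skin library.

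miR-467c-5p rose by 1.27 ± 0.33 (log2, SE) averaged over the genotypes (adjusted p = 0.0102) and by 1.96 ± 0.51 in WT mice (adjusted p = 0.0213). In TAp63-/- mice the difference was 0.58 ± 0.43 (adjusted p = 0.325). Because its skin values were all equal to the floor, the SE and p-values can be too small. In TAp63-/- mice, 2 tumours were at the floor as well. Of its 4 values above the floor, 2 lay below the limit of 4.79. With every library raised to that limit the averaged difference was 0.32 (adjusted p = 0.147) and that in WT mice was 0.54 (adjusted p = 0.158). Without WT SCC 1 the averaged difference was 0.97 (adjusted p = 0.058) and that in WT mice was 1.36 (adjusted p = 0.234). Leaving out WT skin 1, WT skin 2 or WT skin 3 kept the difference in WT mice at 1.96 but gave adjusted p = 0.0546, 0.0608 and 0.054.

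The 3p pair miR-467a-3p and miR-467d-3p had lower values with the same libraries at the top. It was at 3.32 in all WT skin libraries and at 3.32, 3.51 and 3.78 in TAp63-/- skin. It was 6.69 and 3.32 in WT SCC, and 3.32, 4.07, 6.24 and 4.34 in TAp63-/- SCC. The averaged difference was 1.32 ± 0.60 (adjusted p = 0.104), and 4 of 6 tumours were above every skin library. In each of the 6 libraries where both arms of miR-467a were above the floor, the 5p value was the higher, by 0.75 to 2.84 on the log2 scale. The 5p value is shared with miR-467b-5p and the 3p value with miR-467d-3p. The difference therefore cannot be assigned to the arms of miR-467a alone.

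The other 2 miR-467 members that were tested did not pass. miR-467d-5p was above the floor in 1 skin library, at 3.64 in TAp63-/- skin 2, and in WT SCC 1 at 6.56 and TAp63-/- SCC 2, 3 and 4 at 3.76, 4.53 and 3.81, with an averaged difference of 1.02 ± 0.46 (adjusted p = 0.0989). miR-467e-5p was above it in WT SCC 1 at 5.42 and in TAp63-/- SCC 2 and 3 at 3.71 and 3.59, with an averaged difference of 0.61 ± 0.29 (adjusted p = 0.119). Neither was measured in WT SCC 2.

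**Figure D4:**
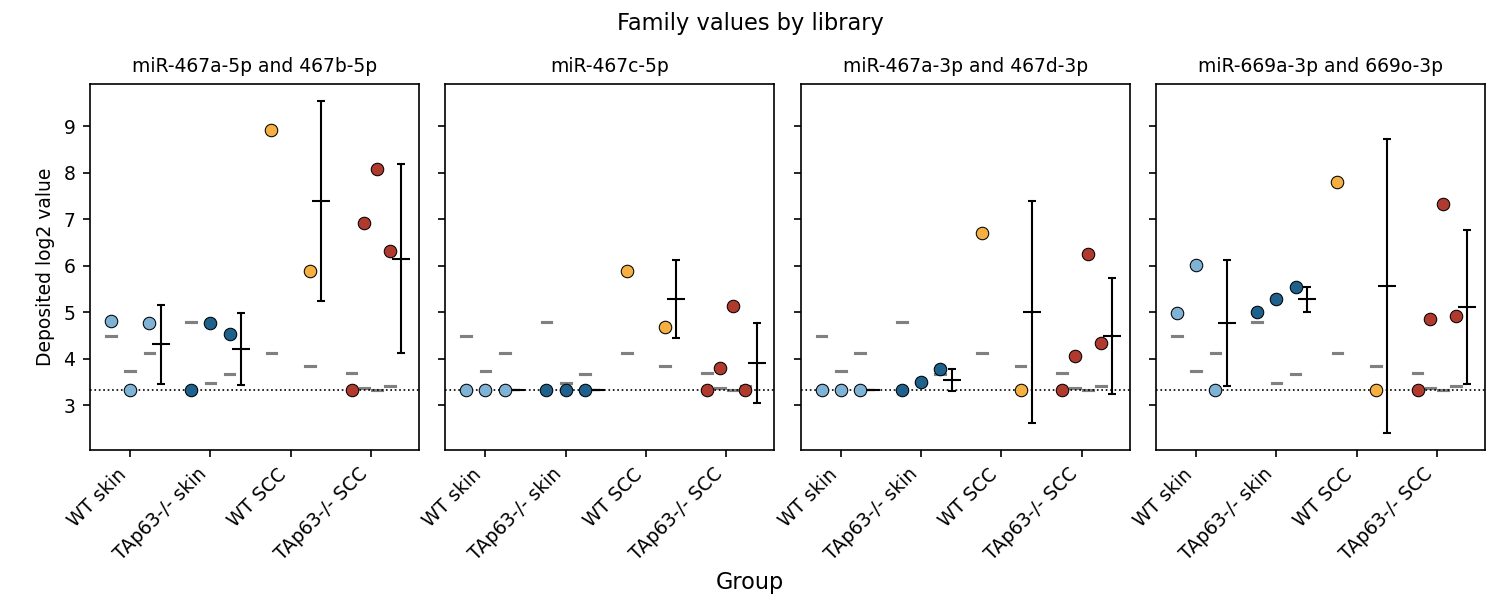
Deposited log2 values (y axis) of the members with the highest means, miR-467c-5p included, with 1 point per library in each group (x axis), the group mean and SD as black bars, the floor as a dotted line and the lowest value above the floor in each library as a short grey bar. For miR-467a-5p and miR-467b-5p, 5 of 6 tumours lie above every skin library, while for miR-669a-3p and miR-669o-3p skin and tumours overlap.

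miR-669a-3p and miR-669o-3p, which shared 1 value, were the members most often measured in skin. Their value was 4.97, 6.01 and 3.32 in WT skin and 5.01, 5.28 and 5.54 in TAp63-/- skin. It was 7.80 and 3.32 in WT SCC, and 3.32, 4.85, 7.33 and 4.93 in TAp63-/- SCC. Only 2 of 6 tumours were above every skin library, and another 2 were at the floor. The averaged difference of 0.31 ± 0.86 did not pass (adjusted p = 0.776).

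The order of these 2 abundant profiles was compared in libraries where both were above the floor. In the skin libraries where both were above the floor, miR-669a-3p was above miR-467a-5p by 0.15 in WT skin 1, 0.51 in TAp63-/- skin 2 and 1.01 in TAp63-/- skin 3. In the tumours where both were above it, miR-669a-3p was below miR-467a-5p, at -1.12 in WT SCC 1, -2.06 in TAp63-/- SCC 2, -0.74 in TAp63-/- SCC 3 and -1.39 in TAp63-/- SCC 4. WT skin 3 went against the other skin libraries, with miR-669a-3p at the floor and miR-467a-5p at 4.77, while WT skin 2 and TAp63-/- skin 1 had miR-467a-5p at the floor. The deposited scale is not per length, and this order was seen in the data and not tested.

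The other 5p members of miR-669 were low. miR-669c-5p was at 4.27 in WT skin 2, 3.55 and 3.78 in TAp63-/- skin 2 and 3, 5.68 in WT SCC 1, and 3.78 and 4.15 in TAp63-/- SCC 2 and 3, with an averaged difference of 0.48 ± 0.38 (adjusted p = 0.344). miR-669l-5p was above the floor only in WT SCC 1, at 4.32, and in TAp63-/- SCC 3, at 3.33. miR-669b-5p, miR-669d-5p and miR-669o-5p were above it in TAp63-/- SCC 3 alone, at 3.35, 3.36 and 3.33.

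The miR-466 and miR-297 members stood close to the floor wherever they were measured. miR-466b-3p, miR-466c-3p and miR-466p-3p were at 3.40 in TAp63-/- SCC 2 and 3.68 in TAp63-/- SCC 3, and miR-466a-3p and miR-466e-3p were at 3.38 and 3.64 in these libraries. miR-466c-5p, at 3.34, and miR-297a-5p, at 3.33, were above the floor in TAp63-/- SCC 3 only. All these values lay below the lowest value above the floor in 7 of the other 10 libraries.

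Of the 16 members above the floor in at least 2 libraries, which were the ones tested, 3 were higher in SCC averaged over the genotypes and 0 lower, by limma with an adjusted p under 0.05. This share of 18.8% stood against 20.4% higher and 21.5% lower among all 544 entries tested, so it was near the background. With unadjusted p-values under 0.05 there were 6 higher and 0 lower. These 6 include the identical pairs miR-467a-5p with miR-467b-5p and miR-467a-3p with miR-467d-3p, so they are fewer than 6 measurements. The share of all entries at this unadjusted threshold is not given here, so the count has no background beside it. The median difference of the 16 was 0.39, against 0.04 for all entries, and all 16 differences were above 0, against 52.8% of all entries. These 16 are 10 distinct profiles, and 5 of the profiles (8 members) were at the floor in all skin libraries, where a difference cannot be negative. Without WT SCC 1, 13 differences were above 0 and 3 below (miR-669a-3p and miR-669o-3p at -0.81, miR-669c-5p at -0.11), with a median of 0.05. Without WT skin 3 or without TAp63-/- SCC 3, 14 were above 0 and 2 below. The median was 1.28 without WT SCC 2, 0.62 without WT skin 2 and 0.61 without TAp63-/- SCC 1.

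In WT mice, 1 of 16 members was higher (6.2%, against 8.82% of all entries) and 0 were lower (against 9.38%). The median difference was 0.83, against 0 for all entries. It was 0 without WT SCC 1, with 3 members above 0 and 3 below, 2.32 without WT SCC 2 and 1.30 without WT skin 2. In TAp63-/- mice, limma called 0 of 16 in either direction, with 0 at an unadjusted p under 0.05, while 16.0% of all entries were higher and 18.2% lower. The median difference there was 0.11, against 0.05. It was 0.32 without TAp63-/- SCC 1, 0.03 without TAp63-/- SCC 3 and 0.17 without TAp63-/- SCC 4.

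Single libraries decided these counts. The share of all entries called in the same fits is not given here, so these counts cannot be read as particular to the families. Leaving out WT SCC 1 or WT SCC 2 also leaves a lone WT tumour, whose spread is taken from the other groups. Averaged over the genotypes, 0 members passed without WT SCC 1, 1 passed without WT skin 2 or without TAp63-/- skin 1, and 9 passed without WT SCC 2. In WT mice 0 passed without WT SCC 1 or without any 1 of WT skin 1, WT skin 2 and WT skin 3, 7 passed without WT SCC 2 and 3 without TAp63-/- SCC 1. In TAp63-/- mice 2 passed without TAp63-/- SCC 1, miR-467a-5p and miR-467b-5p. The 10 tested profiles were highest in WT SCC 1 for 8 and in TAp63-/- SCC 3 for the other 2, and all 10 were at the floor in TAp63-/- SCC 1 and 8 in WT SCC 2.

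**Figure D5:**
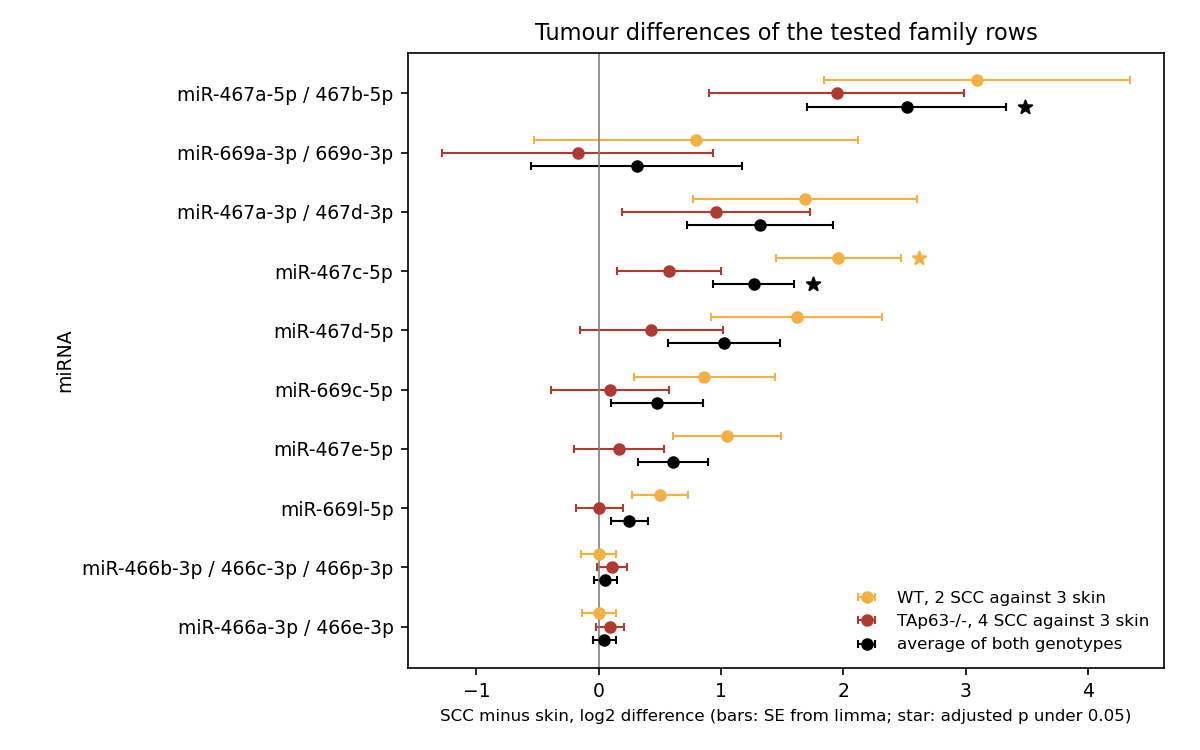
Log2 differences of SCC minus skin (x axis) for the tested members (y axis, names with equal values on 1 line) in WT mice, in TAp63-/- mice and averaged over both, with SE from limma as bars and a star for an adjusted p under 0.05. Stars mark miR-467a-5p with miR-467b-5p and miR-467c-5p in the average, and miR-467c-5p in WT mice.

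No member passed the test between TAp63-/- and WT mice. In skin, limma called 0 of 16 members and 0.0% of all entries, with 0 members at an unadjusted p under 0.05 and differences from -0.10 to 0.51 (TAp63-/- minus WT). The signs of miR-467a-5p with miR-467b-5p, miR-669c-5p and miR-669a-3p with miR-669o-3p each turned when a single skin library was left out. Of these 16 members, 5 had a difference above 0, 3 below and the rest were at the floor in both skin groups. More members were above the floor in TAp63-/- skin 2 and 3, with 8 and 7, than in WT skin, with 2 to 4, but TAp63-/- skin 1 had 2.

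In SCC, limma called 0 of 16 members and 0.184% of all entries between the genotypes. With unadjusted p-values under 0.05 there were 2 lower and 0 higher in TAp63-/- tumours: miR-467c-5p at -1.38 ± 0.48 (adjusted p = 0.345) and miR-669l-5p at -0.50 ± 0.22 (adjusted p = 0.538). No share of all entries at that unadjusted threshold is given here. For miR-467c-5p the tumours of both genotypes overlapped, since 5.14 in TAp63-/- SCC 3 was above 4.69 in WT SCC 2. The miR-467a-5p and miR-467b-5p pair was at -1.24 ± 1.18 (adjusted p = 0.753). Across the 16 members 11 were lower and 5 higher in TAp63-/- tumours, with a median of -0.50, against 0.07 for all entries, of which 56.4% were higher. The 5 higher members, all of miR-466, were at the floor in both WT tumours, where a difference cannot be negative. The lower direction rested on WT SCC 1: without it 1 member was lower, miR-467c-5p, and 15 were higher, with a median of 0.22. The WT tumour then left, WT SCC 2, was at the floor for 8 of the 10 tested profiles. For these a negative difference was not possible, so most of the 15 were fixed in advance. The median was -2.01 without WT SCC 2, -1.06 without TAp63-/- SCC 3 and -0.12 without TAp63-/- SCC 1.

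The difference between the genotypes' tumour effects did not pass for any member. For this interaction limma called 0 of 16 members and 0.0% of all entries, with 0 members at an unadjusted p under 0.05. It was -1.38 ± 0.66 for miR-467c-5p (adjusted p = 0.613) and -1.15 ± 1.63 for miR-467a-5p and miR-467b-5p (adjusted p = 0.875). Without WT SCC 1 the interaction changed sign for 10 of the 16 members, and it was 0.37 for the pair. The WT tumour then left, WT SCC 2, was at the floor for 8 of the 10 tested profiles. Their WT tumour effect could not be above 0. Leaving out WT SCC 2 makes WT SCC 1 the lone WT tumour and assumes that it varies like the other groups. In that fit 11 of the 16 members were lower and 5 higher in TAp63-/- tumours, with a median of -2.01. The interaction was below 0 for 11 members and above 0 for 5, with a median of -1.97. These values rest on 1 WT library, so only their size is given.

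Entries outside the families that hold UGUGUG were called in both directions. Of 16 such entries, 9 were at the floor in all libraries, against 51.7% of all entries, and 7 were tested. Among all 544 entries tested, 20.4% were higher and 21.5% lower in the average of the genotypes. The 7 entries are too few to be set apart from these shares. In the average of the genotypes, miR-672-5p was higher in SCC, by 2.45 ± 0.76 (adjusted p = 0.0239). Lower were the muscle miRNA miR-206-3p, which fell by 6.20 ± 0.43 (adjusted p = 7.76e-06), miR-574-5p, which fell by 1.20 ± 0.36 (adjusted p = 0.0212), and let-7k, which fell by 0.72 ± 0.26 (adjusted p = 0.0415). let-7b-5p, miR-32-3p and miR-489-5p did not pass.

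Markers of the cell types in skin were measured beside the members, as the log2 of their summed linear values. The 7 keratinocyte miRNAs were all above the floor, at 18.33 to 18.80 in skin and 18.28 to 19.28 in SCC, and 1 was higher and 1 lower in the averaged contrast. The 5 striated muscle miRNAs were all above it, at 16.02 to 16.46 in skin, 12.53 and 14.94 in WT SCC, and 12.21 to 13.97 in TAp63-/- SCC, and 4 of the 5 were lower in the averaged contrast. WT SCC 2, with 3 members above the floor, had the highest muscle sum of the tumours, and TAp63-/- SCC 3, with 21, came next at 13.97. TAp63-/- SCC 4, with 7, had the lowest at 12.21, and WT SCC 1, with 11, came next at 12.53. TAp63-/- SCC 1, with no member above the floor, had a muscle sum of 13.55 and a keratinocyte sum of 19.23, both inside the range of the other tumours.

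Of the 5 leukocyte miRNAs, 4 were above the floor and miR-155-5p was not. Their sum was 14.20 to 14.65 in skin, 14.94 and 15.37 in WT SCC, and 13.96 to 15.91 in TAp63-/- SCC, and 2 were higher in the averaged contrast. It was lowest in TAp63-/- SCC 3, which had the most members, and highest in TAp63-/- SCC 2, which had the next most, 15. The 4 red cell miRNAs summed to 15.10 to 16.19 in skin and 14.07 to 16.58 in SCC, with 2 of them higher in the averaged contrast. Their sum was highest in TAp63-/- SCC 1 and lowest in TAp63-/- SCC 3. WT SCC 1, with 11 members above the floor, was the next highest of the tumours at 15.87. The 4 fibroblast miRNAs (2 lower) were at 15.50 to 16.06 in skin and 15.23 to 16.04 in SCC, and the 2 endothelial miRNAs (1 higher) at 15.53 to 15.94 and 15.87 to 16.50. All 4 and both were above the floor. The part of these cell types in the values of the members was not tested.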

How the data were processed

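Small RNA of 12 samples was sequenced. The file the authors deposited holds log2 values of 1251 miRNA entries, with mm10 as the genome build per the submitters' processing notes. Which aligner, counter and miRBase release were used is not given in the sources used here. The deposited log2 values appear to be quantile normalized, judged from the values themselves. Every library sums to between 6065014 and 6065621 on the linear scale, and nothing lies under 10. Near-equal sums alone could also come from scaling to a common total. Equal ranks also held equal values: rank 307 was 5.8752 in both WT SCC 1 (miR-467c-5p) and WT SCC 2 (miR-467a-5p). This was not checked over all ranks. Read counts are not kept, so depth is unknown and counting errors cannot be given.

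The 544 entries above the floor in 2 or more libraries were fitted with limma 3.58.1 in R 4.3.3 on the log2 values as deposited, with 1 mean per group (4 groups), a variance trend and robust moderation (residual degrees of freedom 8, prior median 3.2). Benjamini-Hochberg adjustment covered all 544 entries of a contrast, and entries with an adjusted p under 0.05 were called. The script was tested on simulated data with normal errors and without a floor or entries sharing their values. That test therefore says nothing on members near the floor or with identical values.

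Members measured in 2 or more libraries could be named, with values in every library for those called and for the 6 with the highest mean. Members above the floor in 1 library were named with that value and the others counted. Marker lists and entries holding UGUGUG were further lists. The members and lists were chosen with earlier results of these data known. Hairpin positions and names came from RefSeq (GRCm38.p6), and Sfmbt2 introns from GENCODE M21. Alternatives were other filters, pseudocounts, variance models, library weights, scaling, fewer groups in the fit, a common floor and leaving out each library.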

Additional observations from a re-analysis of the deposited data

Results flagged for a closer look

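Within the 4 TAp63-/- SCC libraries, 6 of 21 members checked had 1 library apart from the rest by Dixon's ratio of the gap to the range, which was 1.0 for each. In each of them TAp63-/- SCC 3 was just above the floor and the other 3 libraries were at it: miR-297a-5p, miR-669l-5p and miR-669o-5p at 3.3348, miR-466c-5p at 3.3445, miR-669b-5p at 3.349 and miR-669d-5p at 3.3617. With 3 values tied at the floor the ratio is 1.0 by construction, so the rate of about 1 in 20 groups that chance gives for untied values does not apply to this number. miR-297a-5p and miR-669o-5p share all their values. The same library had the most entries above the floor (545) and the lowest value above it (3.32), which largely restate each other.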

How the results depend on the processing

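The count of members higher in SCC in the average of the genotypes was 2 to 3 under all 8 other settings and 0 to 9 when 1 library was left out. In WT mice the count was 0 with a common floor, 3 when only the WT groups were fitted, and 0 to 7 when 1 library was left out. In TAp63-/- mice leaving out 1 library gave 0 to 2. Between the genotypes it gave 0 to 3 in SCC, 0 to 3 for the interaction and 0 in skin, and the other settings gave 0 in these 4 comparisons. Members above the floor in any library numbered 10 above 2 times the floor, 10 with a common floor, and 0 among the 8 names with a mature sequence. The difference of miR-467a-5p was 2.11 to 2.59 under other settings (adjusted p 0.0108 to 0.0436) and 1.76 to 3.28 with 1 library left out (0.00312 to 0.157). The called differences, miR-467a-5p with miR-467b-5p and miR-467c-5p, kept their sign throughout. Among differences that were not called, library weights turned miR-467a-5p and miR-467b-5p between the genotypes in skin from -0.10 to 0.34, and a common floor turned miR-669a-3p and miR-669o-3p in TAp63-/- tumours from -0.17 to 0.20. Values near the floor depend on a depth that is unknown. No paired analysis was possible because the labels give no replicate numbers and no sample shares a source name with another.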
